A study of Mus musculus with 12 samples.

Results

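The Zfp symbols of the mouse gather a large family of zinc finger proteins, most of which bind DNA through repeated C2H2 fingers, and 272 of these genes were described here in CD11b-sorted brain cells. The members were the protein-coding genes named Zfp and a number whose mean level over the 12 libraries was at least 3 CPM (a gene's counts scaled to a common library size), leaving out Zfp36, Zfp36l1 and Zfp36l2. Of the 36491 rows of the table, 387 were protein-coding Zfp genes, and 115 of these lay under the level and were left out. The rule used the mean level over all libraries and no difference between groups. Just inside the level were Zfp759 at 3.03, Zfp975 at 3.05 and Zfp599 at 3.06 CPM, and just outside were Zfp689 at 2.99, Zfp955b at 2.99 and Zfp948 at 2.97 CPM. All 272 passed the filter on low counts and had at least 10 counts in every library, so the level rule and not the filter set which genes were tested. A group mean fell below 3 CPM for 29 of them, and none reached the level in 1 group alone.

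The cells came from the brains of adult male wild-type C57BL/6J mice, 6 months old, that had all been given a bone marrow transplant (BMT) with or without a head shield. PLX5622, which blocks CSF1R signalling and thereby removes most microglia, was then in the food of all mice for 2 weeks, and 6 further weeks on normal food came before the injection of 50 µg of lipopolysaccharide (LPS) or of saline. Cells were taken 6 hours later. The 4 groups, shielded with LPS, shielded without LPS, unshielded with LPS and unshielded without LPS, held 3 libraries each. The labels do not say that the libraries came from separate animals, so the p-values measure the spread between these libraries, which may be technical. For 2 of the shielded libraries without LPS, replicates 2 and 3, the title says that no LPS was given and the treatment field says that it was; all libraries were grouped by title.

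Many proteins of this family carry a KRAB domain beside their fingers. In the textbook account, KRAB recruits TRIM28 (also called KAP1), which brings the histone methyltransferase SETDB1 and HP1 proteins and so silences retroelements and other sequences that the fingers recognise. Members without KRAB have varied roles, from promoter-binding factors to subunits of chromatin complexes and RNA-binding proteins, and KRAB genes often lie in clusters of near copies on a chromosome.

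From the translated transcripts, 145 members held a KRAB-like stretch and 127 did not, and 12 held a SCAN-like stretch, 3 of them together with KRAB. The number of C2H2 fingers ran from 0 to 36 with a median of 10, with a median of 12 in KRAB-like members and 7 in the rest. The pattern found no finger in 6 members, Zfp330, Zfp365, Zfp503, Zfp703, Zfp839 and Zfp935. Chromosome 7 held 65 members, chromosome 17 held 34, chromosome 13 held 24, chromosome 8 held 20 and chromosome 9 held 18. In 82 members an exon overlapped that of another gene, and the counting of such reads, like that of reads shared between near copies, is not given in the sources used here, so single values of clustered members carry that uncertainty.

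Promoter sequences from RefSeq (GRCm38.p6) matched 229 of the 272 members, and 3 of them are shown, chosen after their values were seen. Zfp467 had the largest fall with LPS in both shield groups, Zfp1 the largest rise in unshielded mice, and Zfp131 the smallest adjusted p among the members that rose in shielded mice, where 5 others rose by more. Each is the stretch upstream of the RefSeq start, up to the first annotated exon, on the gene's own strand. Capitals mark matches to the NF-kB motif.
Zfp131, chr13:119790890-119790982, minus strand: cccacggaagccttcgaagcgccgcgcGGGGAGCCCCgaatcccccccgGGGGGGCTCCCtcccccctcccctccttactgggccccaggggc
Zfp1, chr8:111643193-111643400, plus strand: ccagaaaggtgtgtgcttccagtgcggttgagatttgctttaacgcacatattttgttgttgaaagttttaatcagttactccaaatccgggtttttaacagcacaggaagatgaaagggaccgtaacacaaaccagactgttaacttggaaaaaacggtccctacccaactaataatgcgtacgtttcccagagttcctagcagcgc
Zfp467, chr6:48445091-48445340, minus strand: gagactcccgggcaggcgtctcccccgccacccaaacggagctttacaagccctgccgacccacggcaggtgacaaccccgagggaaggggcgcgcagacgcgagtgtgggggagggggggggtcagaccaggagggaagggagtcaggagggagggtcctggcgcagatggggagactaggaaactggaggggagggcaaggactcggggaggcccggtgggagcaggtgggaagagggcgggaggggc
Within 250 bases upstream, 3 NF-kB matches lay at Zfp131, of which 2 overlap, and none of the 4 motifs searched matched at Zfp1 or Zfp467. Over both strands the NF-kB motif was found at 19 of 229 members (8.30%), against 8.23% of the 27025 genes with a promoter in the table. It matched at 2 of the 25 members with a promoter that rose with LPS in both shield groups, Zfp131 and Zfp868, at 4 of the 38 that fell in both, Zfp316, Zfp710, Zfp974 and Zfp984, and at 11 of the 95 called in neither. The AP-1-type motif TGANTCA was found at 8 members (3.49%, against 7.82% of all genes), an ISRE-like motif (interferon response) at 5 (2.18% against 3.46%) and the ETS-type motif GAGGAAGT at 2 (0.873% against 2.79%). A match describes letters in this window and not a bound site.

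Library totals ran from 18090977 to 60495968 counts. The 10 genes used to check the LPS response summed to 2135 to 4664 CPM in the LPS libraries and to 217.6 to 339.1 CPM in the others, and this range of low sums includes both libraries whose title and treatment field conflict. Microglia markers summed to 25375 to 30242 CPM in the shielded and 15414 to 18442 CPM in the unshielded libraries without LPS. Markers of marrow-derived macrophages summed to 8365 to 27252 and 65338 to 98754 CPM in these. Most of the macrophage sums was Apoe, at a mean of 13821 CPM in shielded and 72241 CPM in unshielded libraries. Of the 10 macrophage markers, 9 were called higher in unshielded mice without LPS. With LPS the 10 microglia markers summed to 19167 to 22130 CPM in shielded (8 lower, 1 higher) and 12792 to 13958 CPM in unshielded libraries (7 lower, 1 higher). Markers of other cells moved with LPS to unlike degrees. The sums of the 8 astrocyte markers overlapped, at 234.7 to 293.6 CPM without and 268.0 to 345.4 CPM with LPS in shielded libraries (2 higher, 3 lower). Much of this sum was Slc1a3, at means of 132.1 CPM without and 220.5 CPM with LPS. The median log2 fold change of the 8 was -0.64 there. In unshielded libraries the astrocyte sums were 262.3 to 322.6 and 198.5 to 284.9 CPM (1 higher, 1 lower). The 9 neuron markers summed to 231.1 to 431.4 CPM without and 41.6 to 202.3 CPM with LPS in shielded libraries, with 9 of 9 lower, and to 333.7 to 400.6 and 147.2 to 270.5 CPM in unshielded ones, with 0 of 9 passing the edgeR test and 1 of 9 at an unadjusted p under 0.05. The 8 oligodendrocyte markers fell from 1827 to 2899 down to 436 to 1358 CPM in the shielded libraries (8 of 8 passed the test) and were at 1811 to 2337 and 1077 to 1947 CPM in the unshielded ones (1 of 8 lower). The 8 endothelial markers had 6 lower in shielded and 7 lower in unshielded mice, and summed to 226.0 to 376.8 CPM without and 116.5 to 143.5 CPM with LPS in shielded libraries and to 318.7 to 351.2 and 117.8 to 187.9 CPM in unshielded ones. B cell markers summed to 317.7 to 381.5 CPM without and 36.9 to 46.6 CPM with LPS in shielded libraries, and to 244.1 to 290.9 and 23.9 to 45.6 CPM in unshielded ones. Of the 10 marrow-derived macrophage markers 2 were higher and 8 lower with LPS in shielded mice, where their sum with LPS was 3617 to 5777 CPM, and 3 higher and 2 lower in unshielded mice. The 8 neutrophil markers summed to 45.3 to 132.1 CPM in unshielded libraries without LPS and 253 to 916.9 CPM with it (6 higher). In shielded libraries the sums overlapped, at 137.9 to 325.2 CPM without and 283.4 to 489.1 CPM with LPS (2 higher). No marker list was at 0 in any group, and in these bulk samples fewer cells of a type and less RNA per cell cannot be told apart. The part of these cells in the values below was not tested, beyond a fit with the neuron and oligodendrocyte level as a covariate, named where it ends a call. In shielded libraries the sums of both lists with and without LPS did not overlap. The covariate and LPS thus moved together there, and a call lost with it cannot tell them apart.

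As a family, the members made up a smaller part of the unscaled reads after LPS. Their summed counts were 0.621% to 0.664% of the library in the shielded group without LPS and 0.535% to 0.553% with LPS, and 0.593% to 0.653% and 0.490% to 0.523% in the unshielded group. In neither shield group did the libraries with and without LPS overlap. These shares use no normalization between libraries, and the TMM factors were 0.815 to 0.969 with LPS and 1.08 to 1.17 without. After TMM scaling the members' median log2 CPM, a different measure, overlapped. It was 3.58 to 3.62 without and 3.54 to 3.64 with LPS in shielded libraries, and 3.51 to 3.60 and 3.37 to 3.59 in unshielded ones. The counts of KRAB-like members per count of the other members were 0.372 to 0.388 without LPS and 0.323 to 0.370 with LPS in shielded libraries, with no overlap. In unshielded libraries they were 0.386 to 0.404 and 0.353 to 0.388, where the highest LPS library reached the range of the others.

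**Figure D1:**
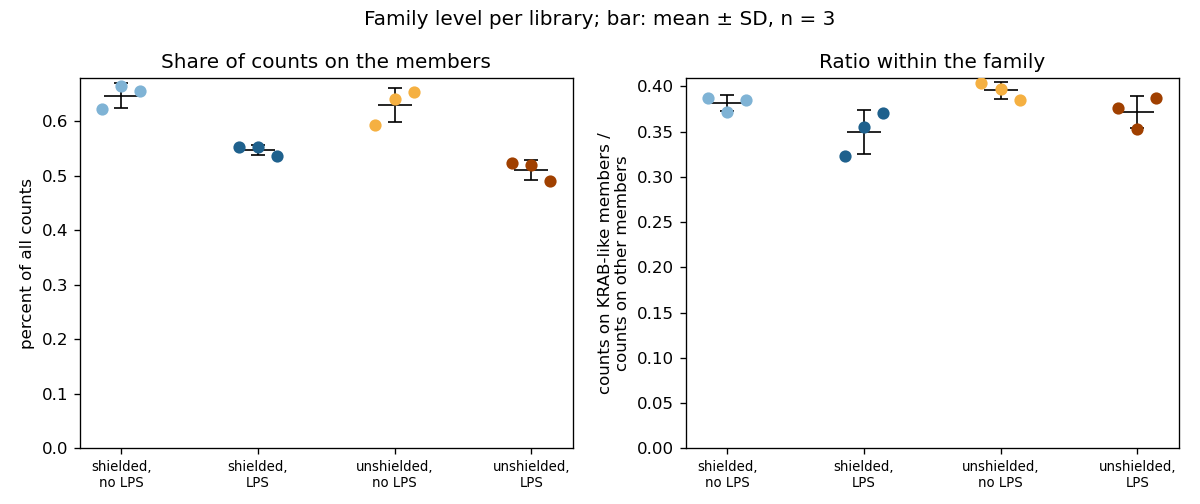
Members' summed counts as a percent of library counts, and counts of KRAB-like members per count of members without KRAB, by group; each point is 1 of the 12 libraries and each bar a group mean ± SD (n = 3). The LPS libraries sit lower in the share of counts, which is not scaled between libraries, in both shield groups, from 0.490% to 0.553% against 0.593% to 0.664%.

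After LPS in shielded mice, as many members rose as fell. Of the 272, 72 were higher and 72 lower (edgeR quasi-likelihood test, Benjamini-Hochberg adjusted p under 0.05 over the 18875 genes tested), a share of 52.9%, while percent called was 67.5% of all genes tested and 76.6% of the 11394 protein-coding genes at the same level. The libraries with and without LPS did not overlap for 168 members (61.8%), against 69.8% of all genes tested. Of all genes tested 32.4% were higher and 35.1% lower. Among the protein-coding genes 47% were higher and 29.6% lower, so the share of members that rose, 26.5%, lay below this background and the share that fell, 26.5%, near it. The median log2 fold change of the members was 0.10, against -0.14 over all genes tested and 0.22 over the protein-coding genes. The sign of the family's median and the split of its calls depended on the scaling: with library totals in place of TMM factors the median was -0.25 with 29 higher and 125 lower, with the cell-marker covariate -0.10 with 25 higher and 53 lower, and with an offset for GC content and length 0.30 with 112 higher and 36 lower. Scaled on the protein-coding genes of at least 3 CPM alone, 48 were higher and 106 lower. Library totals moved the median of all genes to -0.49. With the 2 conflicting libraries left out, 48 of the 72 higher calls and 35 of the 72 lower calls were kept. With those libraries grouped by their treatment field, which leaves 1 shielded library without LPS, 0 members were called.

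In unshielded mice LPS moved fewer members. There, 34 were higher and 63 lower, a share of 35.7%, while percent called was 43.1% of all genes tested and 55.3% of the protein-coding genes at the same level, of which 35.1% were higher and 20.2% lower; of all genes 24.3% were higher and 18.8% lower. Groups did not overlap for 147 members (54.0%), against 61.4% of all genes. The members' median was -0.07, against -0.06 over all genes and 0.10 over protein-coding genes. With library totals 12 were higher and 153 lower, on protein-coding genes alone 28 and 100, with the covariate 26 and 79, and with the GC content and length offset 36 were higher and 31 lower. The call in 1 shield group and not in the other does not show that a member's response differed; that difference has its own test below.

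The LPS libraries of the 2 shield groups share no controls, and their changes can be set side by side. In both, 31 members were higher, 46 were lower, 111 were called in neither and 3 moved in opposite directions. The 31 were 43.1% of those higher in shielded and 91.2% of those higher in unshielded mice, and the 46 were 63.9% and 73.0% of those lower. Over the 272 members, Pearson's r of both log2 fold changes was 0.775 and Spearman's rho 0.741, as a description over genes that are not independent, and r was 0.881 over the 11394 protein-coding genes.

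**Figure D2:**
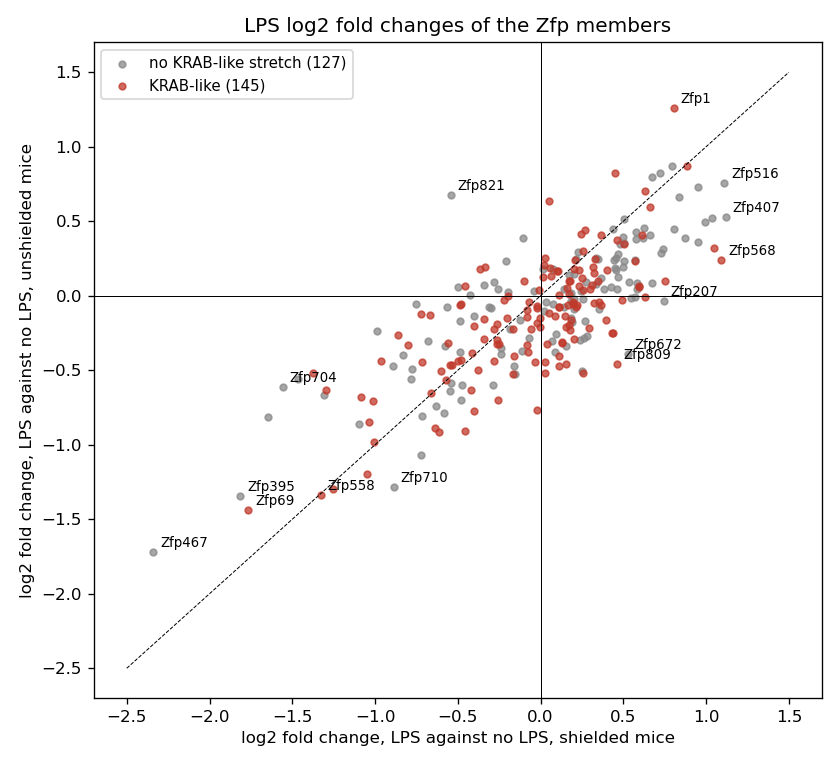
log2 fold change after LPS in shielded mice (x axis) and unshielded mice (y axis); each point is 1 of the 272 members, coloured by whether it held a KRAB-like stretch, with a dashed line where both are equal. Zfp467 lies lowest on both axes, and 3 members called in both moved up in one group and down in the other.

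Several members with large falls fell in both shield groups. Zfp462 and Zfp612, also among the 8 largest called falls without overlap in shielded mice, were not called in unshielded mice. Zfp467 (chromosome 6), a factor known from the choice between bone-forming and fat cells, was at 57.2, 71.8 and 61.4 CPM in shielded libraries without LPS and at 13.4, 10.9 and 13.3 CPM with it. In unshielded libraries it was at 39.2, 44.9 and 51.2 CPM and at 16.8, 13.9 and 10.3 CPM. Every LPS library lay below every library without LPS, and the log2 fold changes were -2.34 ± 0.17 (SE, adjusted p = 2.89e-07, 5.06-fold lower) and -1.72 ± 0.17 (adjusted p = 7.08e-06, 3.30-fold lower).

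Zfp395 and Zfp704 (chromosomes 14 and 3) encode related proteins with a single C2H2 finger; human ZNF395 is known for binding the Huntington disease gene promoter. Zfp395 was at 29.3, 30.8 and 27.2 CPM without LPS and 7.48, 8.59 and 8.77 CPM with it in shielded libraries, and at 46.4, 42.8 and 45.8 against 19.1, 20.6 and 13.5 CPM in unshielded ones. It fell by 1.81 ± 0.14 on the log2 scale in shielded (adjusted p = 3.38e-07) and by 1.34 ± 0.13 in unshielded mice (adjusted p = 7.26e-06), with no overlap of libraries. Zfp704 was at 24.5, 21.4 and 24.96 CPM without LPS and 6.06, 7.64 and 10.4 CPM with it in shielded libraries, and at 38.2, 37.7 and 43.4 against 24.4, 29.4 and 24.5 CPM in unshielded ones. Its fall was 2.94-fold in shielded and 1.53-fold in unshielded mice (log2 fold changes -1.56 ± 0.16 and -0.61 ± 0.15, adjusted p = 4.38e-06 and 0.00666).

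Among KRAB-like members, Zfp69 (chromosome 4), a gene linked to diabetes susceptibility in mice, fell from 30.1, 34.5 and 35.0 CPM to 9.71, 10.2 and 9.35 CPM in shielded libraries. In unshielded libraries it fell from 12.7, 19.4 and 17.0 CPM to 7.02, 5.67 and 5.30 CPM. The groups with and without LPS did not overlap in either case (log2 fold changes -1.77 ± 0.15 and -1.44 ± 0.15, adjusted p = 8.83e-07 and 1.26e-05). Zfp558, Zfp791 and Zfp810, further KRAB-like members, also fell in both: Zfp558 by 1.33 and 1.34 on the log2 scale, Zfp791 by 1.05 and 1.20 and Zfp810 by 1.08 and 0.68 in shielded and unshielded mice (largest adjusted p = 0.000765). Zfp810 was at 31.6, 29.5 and 24.96 CPM without and 11.7, 13.4 and 15.4 CPM with LPS in shielded libraries, and at 50.3, 42.4 and 39.1 against 25.9, 28.96 and 27.5 CPM in unshielded ones. Zfp558 and Zfp791 are low genes, at 4.53, 4.43 and 4.79 CPM and at 4.25, 3.49 and 3.66 CPM in shielded libraries without LPS.

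Zfp710, with 11 fingers and no KRAB-like stretch, was among the 6 members with the most counts. It was at 222.5, 270.4 and 227.5 CPM without and 160.9, 109.7 and 118.8 CPM with LPS in shielded libraries, and at 149.5, 178.2 and 167.1 against 81.0, 70.3 and 51.6 CPM in unshielded ones. The LPS libraries were lower throughout (log2 fold changes -0.89 ± 0.17 and -1.29 ± 0.17, adjusted p = 0.000753 and 9.17e-05). The falls of Zfp467, Zfp395, Zfp69, Zfp558, Zfp710, Zfp791 and Zfp810 in both shield groups and of Zfp704 in shielded mice kept their calls under every alternative run, except that grouping the 2 conflicting libraries by treatment field left no call in shielded mice.

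**Figure D3:**
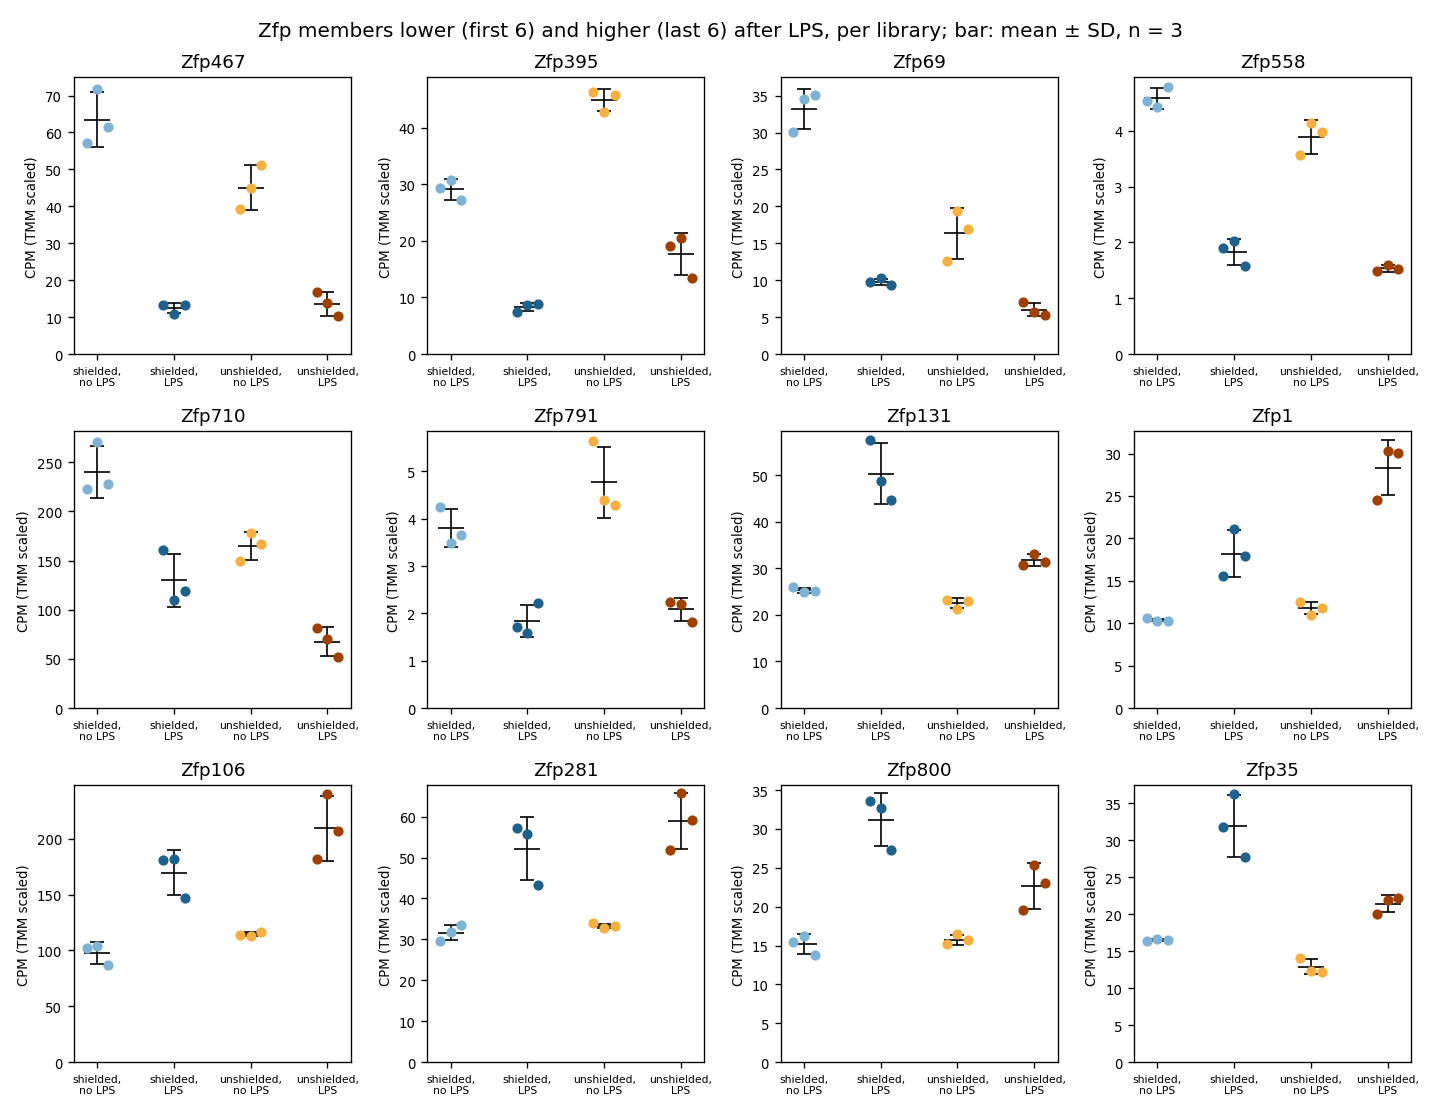
TMM-scaled CPM (linear axis from 0) of 6 members lower and 6 higher after LPS in both shield groups; each point is 1 library and each bar a group mean ± SD (n = 3). For Zfp467 the LPS libraries lie between 10.3 and 16.8 CPM and the others between 39.2 and 71.8 CPM, and for Zfp131 the order is the other way round.

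Rises were smaller. Zfp131 (chromosome 13), a BTB/POZ factor with 5 fingers, was at 25.9, 24.9 and 25.2 CPM without and 57.6, 48.8 and 44.7 CPM with LPS in shielded libraries, and at 23.2, 21.3 and 23.1 against 30.8, 33.2 and 31.4 CPM in unshielded ones. The LPS libraries lay above the others in both (log2 fold changes 0.99 ± 0.09 and 0.49 ± 0.09, adjusted p = 1.59e-06 and 0.000916). Zfp1 (chromosome 8), a KRAB-like member with 8 fingers, was the only member called at least 2-fold higher in unshielded mice. It was at 12.5, 11.03 and 11.8 CPM without and 24.6, 30.3 and 30.0 CPM with LPS there, and at 10.6, 10.3 and 10.3 against 15.6, 21.1 and 17.9 CPM in shielded libraries (log2 fold changes 1.26 ± 0.12 and 0.80 ± 0.12, adjusted p = 5.50e-06 and 9.03e-05).

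Zfp106, an RNA-binding protein needed in muscle and its nerves, was at 102.1, 104.3 and 86.7 CPM without and 180.8, 181.4 and 146.8 CPM with LPS in shielded libraries. In unshielded libraries it was at 113.8, 113.0 and 116.6 against 182.0, 240.0 and 206.5 CPM. Both groups with LPS were clear of those without (log2 fold changes 0.80 ± 0.12 and 0.87 ± 0.12, adjusted p = 8.56e-05 and 8.42e-05). Zfp281, a factor of pluripotent cells that works with the NuRD complex, rose by 0.72 ± 0.11 and 0.82 ± 0.11 (adjusted p = 0.000132 and 9.01e-05), and Zfp263, a SCAN-domain factor, by 0.84 ± 0.10 and 0.67 ± 0.10 (adjusted p = 1.77e-05 and 0.000233).

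Zfp407, which acts with PPARG on glucose uptake genes in fat cells, was at 16.8, 19.5 and 15.3 CPM without and 39.2, 38.9 and 33.6 CPM with LPS in shielded libraries and rose by 1.12 ± 0.13 (adjusted p = 1.12e-05), and by 0.53 ± 0.13 in unshielded ones (adjusted p = 0.00581), the latter lost with library totals (0.22, adjusted p = 0.074). Zfp516, a factor of brown fat, was at 39.2, 39.2 and 35.2 against 96.1, 92.7 and 56.4 CPM in shielded libraries (1.11 ± 0.20, adjusted p = 0.000398), a call lost with the cell-marker covariate (0.38, adjusted p = 0.106). Its rise in unshielded mice was also called and kept in 16 of 16 alternatives, with log2 fold changes of 0.44 to 0.89. Zfp800 and Zfp35 were higher by 1.04 ± 0.11 and 0.95 ± 0.10 in shielded mice (adjusted p = 6.80e-06 and 5.68e-06) and by 0.52 ± 0.11 and 0.73 ± 0.10 in unshielded ones (adjusted p = 0.00266 and 0.000118). Zfp131, Zfp1, Zfp106, Zfp281, Zfp263, Zfp800 and Zfp35 kept their calls in shielded mice in every alternative run that grouped libraries by title, but with library totals each log2 fold change was over 1.5 times smaller: 0.63 for Zfp131, 0.46 for Zfp1, 0.44 for Zfp106, 0.36 for Zfp281, 0.48 for Zfp263, 0.69 for Zfp800 and 0.60 for Zfp35. In unshielded mice library totals gave 0.20 for Zfp131, 0.22 for Zfp800, 0.36 for Zfp263, 0.43 for Zfp35, 0.52 for Zfp281, 0.56 for Zfp106 and 0.96 for Zfp1, all still called.

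Calls differed with KRAB and with the level of the gene, which go together. In shielded mice 25 of 145 KRAB-like members were higher and 38 lower (17.2% and 26.2%), against 47 higher and 34 lower of 127 without KRAB (37.0% and 26.8%). In unshielded mice the counts were 8 and 34 (5.52% and 23.4%), against 26 and 29 (20.5% and 22.8%). The shares of protein-coding genes at the same level were 47% and 29.6% in shielded mice, and 35.1% and 20.2% in unshielded mice. KRAB-like members had a median of 8.41 CPM and the others 22.7 CPM, in counts not corrected for length, and their transcripts had a median GC content of 41.7% and 50.6%. Within KRAB-like members of at least 10 CPM, 18 of 55 were higher and 10 lower in shielded mice, and within those under 10 CPM 7 of 90 were higher and 28 lower. Without KRAB the counts were 43 and 24 of 101, and 4 and 10 of 26. In unshielded mice, 7 of the 55 KRAB-like members were higher and 12 lower, and 1 of the 90 was higher and 22 lower, while without KRAB 24 and 20 of 101, and 2 and 9 of 26 were called. In each class the genes with fewer counts were thus called lower more often than higher. The shares of all protein-coding genes in these ranges of level were not computed. Whether the pattern is particular to the members was thus not tested. With the GC content and length offset 46 KRAB-like members were higher and 20 lower in shielded mice, against 66 and 16 of the others, and with library totals 7 and 70, against 22 and 55. Across the 272 members, the log2 fold change after LPS and the log2 mean CPM had an r of 0.235 in shielded and 0.288 in unshielded mice; with the number of fingers it was 0.003 and -0.082. These are descriptions over genes counted in the same libraries. Of the 12 SCAN-like members, 6 were higher and 3 lower in shielded mice (50% and 25%, against 47% and 29.6% of protein-coding genes). In unshielded mice 3 were higher and 4 lower (25% and 33.3%, against 35.1% and 20.2%).

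**Figure D4:**
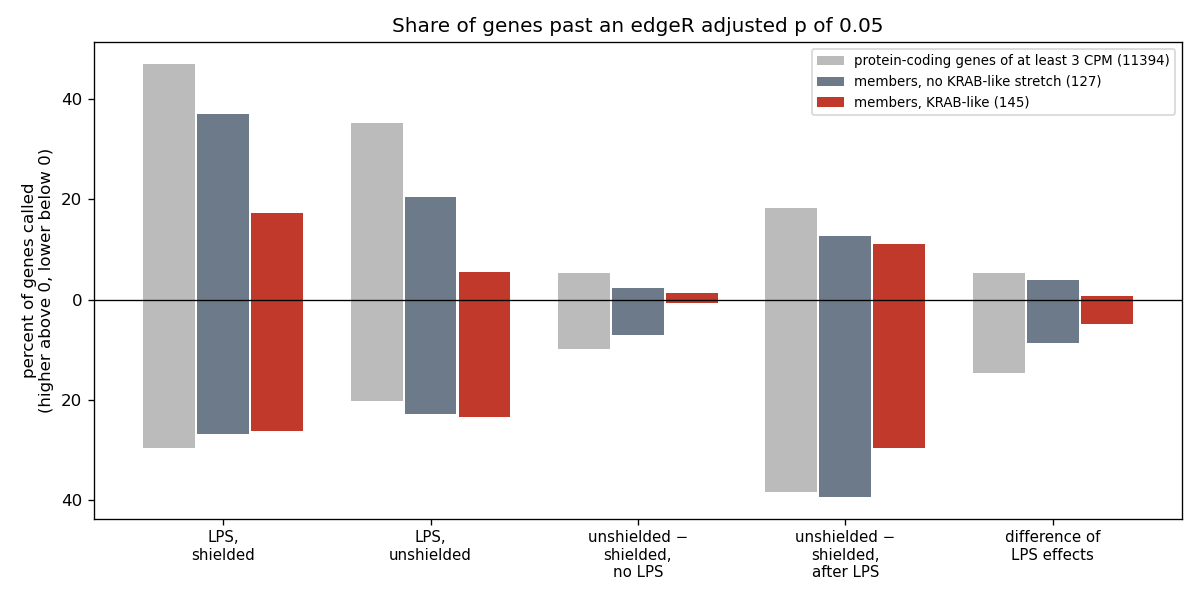
Percent of genes called higher (up) or lower (down) in each of the 5 comparisons, for protein-coding genes of at least 3 CPM, members without KRAB and KRAB-like members. After LPS in shielded mice the percent higher is 47% of the protein-coding genes, 37.0% of members without KRAB and 17.2% of KRAB-like members.

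Members with roles in RNA binding, ribosomes or ubiquitin transfer were 14; 7 were higher and 1 lower in shielded mice (50.0% and 7.14%, against 47% and 29.6% of protein-coding genes at the same level) and 3 and 2 in unshielded mice (21.4% and 14.3%, against 35.1% and 20.2%). Zfp330, a member in which no finger was found, was at 18.0, 18.9 and 17.3 CPM without and 36.4, 35.5 and 27.2 CPM with LPS in shielded libraries and rose by 0.87 ± 0.11 (adjusted p = 1.94e-05). Zfp598, the ubiquitin ligase that senses collided ribosomes, was at 65.7, 74.5 and 75.1 CPM without and 153, 127 and 96.8 CPM with LPS there and rose by 0.81 ± 0.15 (adjusted p = 0.000416), a call lost with the covariate (0.28, adjusted p = 0.157). Zfp91, a ubiquitin ligase of the kinase NIK in non-canonical NF-kB signalling, was higher by 0.37 ± 0.10 in shielded mice (adjusted p = 0.00633), a call lost with library totals (0.02), with the covariate (0.04), on protein-coding genes alone (0.14) and without the 2 conflicting libraries (adjusted p = 0.122). In unshielded mice it was at 0.12 ± 0.10 (adjusted p = 0.351). Zfp385a, an RNA-binding partner of p53, fell by 0.55 and 0.64 (adjusted p = 0.00877 and 0.00593), calls lost with the GC content and length offset, which gave 0.15 and -0.34; the first was also lost without the 2 conflicting libraries (adjusted p = 0.102).

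Of 29 members that act as cofactors of chromatin and transcription, 11 were higher and 8 lower in shielded mice (37.9% and 27.6%, against 47% and 29.6% of protein-coding genes at the same level) and 6 and 5 in unshielded mice (20.7% and 17.2%, against 35.1% and 20.2%). Zfp219 was at 56.1, 58.6 and 58.4 CPM without and 33.1, 35.6 and 32.1 CPM with LPS in shielded libraries and fell by 0.78 ± 0.09 (adjusted p = 6.29e-06), and by 0.49 ± 0.08 in unshielded ones (adjusted p = 0.000506); both were lost with the GC content and length offset (-0.08 and -0.17). Zfp532, which with Zfp592 and Zfp687 forms a complex with Zmynd8, fell by 0.74 ± 0.15 in unshielded mice (adjusted p = 0.00177) and by 0.63 ± 0.15 in shielded mice (adjusted p = 0.00264), the latter lost without the 2 conflicting libraries (adjusted p = 0.084). Zfp592 was at 0.35 ± 0.16 and -0.09 ± 0.16 in shielded and unshielded mice (adjusted p = 0.0608 and 0.653). Zfp462, a factor of heterochromatin and neuronal development, was at 5.37, 4.59 and 7.54 CPM without and 0.904, 1.46 and 3.97 CPM with LPS in shielded libraries. Its fall of 1.46 ± 0.42 (adjusted p = 0.00964) became 0.055 with the covariate and a log2 fold change of -2.30 without shielded LPS replicate 3, and was not called without the 2 conflicting libraries (adjusted p = 0.083), beside the fall of neuron markers given above.

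Of the KRAB-like members known for silencing retroelements or imprinted loci, Zfp809, Zfp445, Zfp429 and Zfp932, 2 were higher and none lower in shielded mice, and none higher and 2 lower in unshielded mice. The shares of protein-coding genes at the same level were 47% higher and 29.6% lower in shielded mice, and 35.1% and 20.2% in unshielded mice. Zfp809, which silences Moloney-type proviruses, was at 10.9, 11.6 and 10.03 CPM without and 17.7, 14.2 and 12.9 CPM with LPS in shielded libraries. In unshielded libraries it was at 14.2, 14.3 and 16.6 against 12.03, 11.9 and 9.01 CPM. It rose by 0.46 ± 0.15 in the first (adjusted p = 0.0143) and fell by 0.46 ± 0.15 in the second (adjusted p = 0.0227). The rise was 0.11 with library totals, 0.24 on protein-coding genes alone and 0.06 with the covariate, none of them called, and was also lost without the 2 conflicting libraries (adjusted p = 0.132), shielded LPS replicate 1 (adjusted p = 0.075) or shielded replicate 3 without LPS (adjusted p = 0.055); the fall was lost with no count filter (adjusted p = 0.06), without unshielded LPS replicate 3 (adjusted p = 0.093) or unshielded replicate 3 without LPS (adjusted p = 0.084). Zfp445, a keeper of imprints, was at 0.40 ± 0.13 in shielded mice (adjusted p = 0.0169), a call lost with library totals (0.04), on protein-coding genes alone (0.17), with the covariate (-0.02), without the 2 conflicting libraries (adjusted p = 0.199), and without shielded LPS replicate 1 (adjusted p = 0.060) or 2 (adjusted p = 0.066) or shielded replicate 3 without LPS (adjusted p = 0.067).

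The partners through which KRAB acts were measured in the same libraries. Of 27 corepressor and heterochromatin genes, 17 were higher and 4 lower in shielded mice (63.0% and 14.8%, against 47% and 29.6% of protein-coding genes at the same level) with a median log2 fold change of 0.45, and 8 and 5 in unshielded mice (29.6% and 18.5%, against 35.1% and 20.2%); with library totals the counts were 10 and 9, and 2 and 13. Trim28 was at 177.5 ± 6.4 CPM without and 302.2 ± 50.1 CPM with LPS in shielded mice (SD, n = 3; log2 fold change 0.77 ± 0.12, edgeR adjusted p = 0.000112). In unshielded mice it was at 172 ± 5.51 and 205 ± 21.6 CPM (0.25 ± 0.12, edgeR adjusted p = 0.0993). Setdb1 had a log2 fold change of 0.40 ± 0.12 in shielded mice (adjusted p = 0.00865) and of 0.13 ± 0.12 in unshielded mice (adjusted p = 0.360); the first was lost with library totals (0.05), on protein-coding genes alone (0.18), with the covariate (0.03) and without the 2 conflicting libraries (adjusted p = 0.0814). Daxx, a histone chaperone of silent repeats, rose by 1.36 ± 0.12 and 1.43 ± 0.12 (adjusted p = 7.16e-07 and 1.47e-06). The 4 that were lower in shielded mice were Atf7ip, a partner of SETDB1 (-0.76 ± 0.13, adjusted p = 0.000204), the DNA methyltransferases Dnmt3a (-0.62 ± 0.12, adjusted p = 0.000649) and Dnmt1 (-0.34 ± 0.11, adjusted p = 0.0139), and the histone methyltransferase Ehmt2 (-0.31 ± 0.10, adjusted p = 0.0165). With the GC content and length offset Dnmt3a and Dnmt1 were not called (-0.26 and -0.11) and Ehmt2 was at 0.32 (adjusted p = 0.0781), and leaving out 1 library ended the call of Dnmt1 (adjusted p up to 0.0901) and Ehmt2 (up to 0.0962). That of Ehmt2 was also lost without the 2 conflicting libraries (adjusted p = 0.211). For comparison, the RNA-decay genes Zfp36, Zfp36l1 and Zfp36l2, whose fingers are of the CCCH kind and which the rule left out, rose by 0.91, 1.09 and 0.66 in shielded and by 1.08, 1.08 and 0.79 in unshielded mice (largest adjusted p = 0.0084). In shielded mice the covariate ended all 3 calls (0.32, 0.11 and 0.31), and library totals that of Zfp36l2 (0.30). Of 35 Zbtb genes at the same level, 12 were higher and 4 lower in shielded (34.3% and 11.4%) and 9 and 6 in unshielded mice (25.7% and 17.1%). Of 17 Zscan and Zkscan genes the counts were 2 and 3 (11.8% and 17.6%), and 5 and 2 (29.4% and 11.8%). The shares of protein-coding genes were 47% and 29.6%, and 35.1% and 20.2%.

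Without LPS, few members differed between unshielded and shielded mice. In unshielded mice 5 were higher and 10 lower, 5.51% of the members, while percent called was 10.8% of all genes tested and 15.2% of protein-coding genes at the same level. Of all genes 3.98% were higher and 6.85% lower, and of protein-coding genes 5.32% and 9.85%. Groups did not overlap for 90 members (33.1%), against 33.6% of all genes. The 5 higher were Zfp219, Zfp395, Zfp599, Zfp704 and Zfp810, and the 10 lower were Zfp24, Zfp35, Zfp69, Zfp143, Zfp503, Zfp532, Zfp652, Zfp697, Zfp706 and Zfp770. Without the 2 libraries with conflicting fields, 1 shielded library without LPS is left, so that fit cannot decide whether these differences hold.

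After LPS the difference was wider. Unshielded mice had 32 members higher and 93 lower, 46.0% of the members, while percent called was 44.6% of all genes tested and 56.7% of protein-coding genes at the same level, of which 18.3% were higher and 38.4% lower; of all genes 19.1% were higher and 25.6% lower. Groups did not overlap for 134 members (49.3%), against 49.5% of all genes. The members' median was -0.20, against 0.07 over all genes and -0.15 over protein-coding genes. KRAB-like members gave 16 higher and 43 lower and the others 16 and 50. With library totals the counts were 39 and 77, on protein-coding genes alone 50 and 70, with the covariate 35 and 54 and with the GC content and length offset 17 and 110. The comparison shares its libraries with those of LPS in each shield group, so the values are set side by side only. Of the 15 members called without LPS, 14 were called in the same direction after LPS, all but Zfp652.

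Zfp697, with 11 fingers, was lower in unshielded mice whether or not LPS was given. It was at 12.4, 19.3 and 12.7 CPM in shielded and 3.60, 7.22 and 3.66 CPM in unshielded libraries without LPS, and at 13.0, 12.3 and 12.4 against 5.22, 3.04 and 2.61 CPM with LPS. No unshielded library reached a shielded one (log2 fold changes -1.64 ± 0.31 and -1.79 ± 0.31, adjusted p = 0.00496 and 0.000688). Zfp706, a small protein with 1 finger known from the exit of stem cells from self-renewal, was at 207.3, 211.5 and 182.3 against 133.6, 139.7 and 121.5 CPM without LPS, and at 233.7, 201.7 and 197.8 against 130.4, 127.0 and 123.1 CPM with LPS. It was lower in each unshielded library (log2 fold changes -0.61 ± 0.09 and -0.73 ± 0.09, adjusted p = 0.00129 and 6.38e-05), and both calls held in every alternative run that grouped libraries by title. Zfp532 was lower by 0.91 ± 0.15 and 1.01 ± 0.15 (adjusted p = 0.00184 and 0.000187); the calls without LPS of Zfp697 and Zfp532 were lost without the 2 conflicting libraries (adjusted p = 0.136 and 0.107).

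Higher in unshielded mice after LPS were Zfp704 by 1.70 ± 0.16 (adjusted p = 1.12e-05), Zfp821 by 1.58 ± 0.16 (adjusted p = 1.77e-05), Zfp395 by 1.10 ± 0.14 (adjusted p = 5.46e-05) and Zfp810 by 1.02 ± 0.13 (adjusted p = 5.23e-05), in the CPM given for each. Zfp599, a low KRAB-like gene, was at 1.06, 1.66 and 1.12 CPM in shielded and 2.905, 3.68 and 3.39 CPM in unshielded LPS libraries (1.39 ± 0.30, adjusted p = 0.00253). These libraries also differ in macrophage origin markers, with microglia markers at 19167 to 22130 CPM in shielded and 12792 to 13958 CPM in unshielded LPS libraries. Marrow-derived macrophage markers were at 3617 to 5777 and 88614 to 116076 CPM. Most of this was Apoe, at means of 3192 and 91413.5 CPM, and 9 of the 10 macrophage markers were called higher in unshielded mice. The part of these cells in the members' values was not tested.

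**Figure D5:**
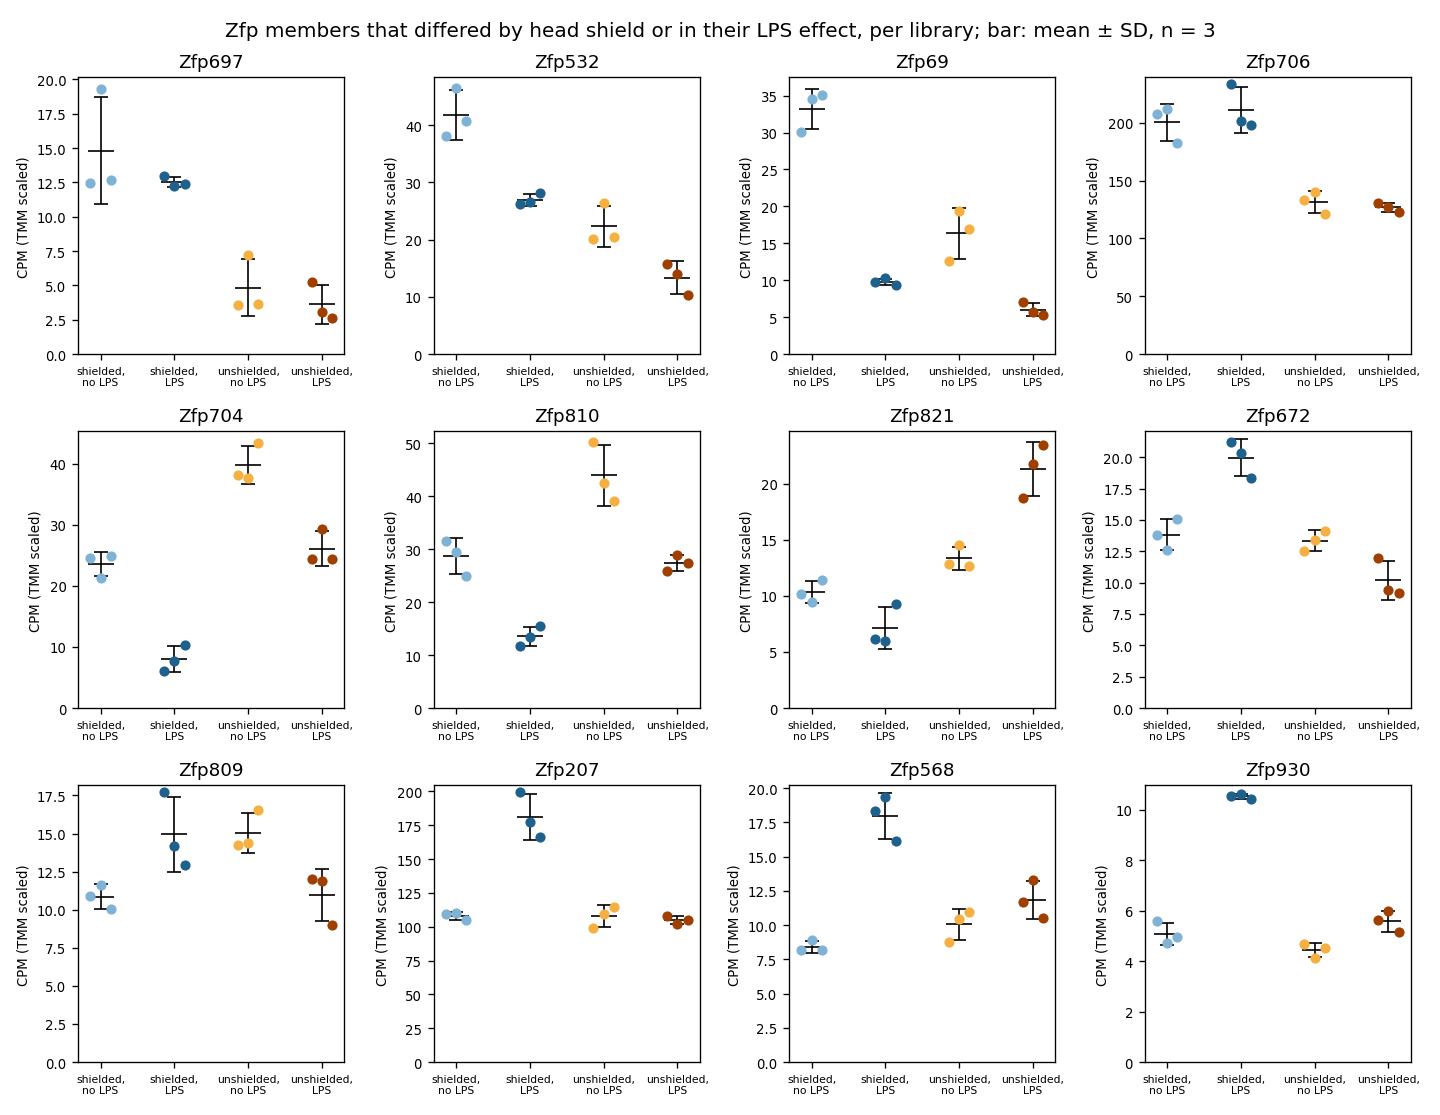
TMM-scaled CPM (linear axis from 0) of 12 members that differed between unshielded and shielded mice or in their response to LPS; each point is 1 library and each bar a group mean ± SD (n = 3). Zfp697, Zfp532, Zfp69 and Zfp706 are lower in unshielded libraries with and without LPS. Zfp207 parts after LPS. Zfp821, not called without LPS although its libraries do not overlap there, parts further after LPS.

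The response to LPS itself differed between the shield groups for 24 members, with 6 higher and 18 lower in unshielded than in shielded mice (edgeR contrast of both responses). That is 8.82% of the members, while percent called was 13.3% of all genes tested and 20% of protein-coding genes at the same level. Of all genes 4.06% were higher and 9.25% lower, and of protein-coding genes 5.3% and 14.7%. The members' counts were 13 and 23 with library totals, 23 and 22 on protein-coding genes alone, 10 and 8 with the covariate, 2 and 6 with the GC content and length offset and 7 and 4 with no count filter. Leaving out 1 library gave 2 to 11 higher and 7 to 65 lower, the 65 without shielded LPS replicate 3. Zfp207 (BuGZ), a partner of Bub3 at the mitotic spindle, was at 109.3, 110.3 and 104.8 CPM without and 199.4, 177.5 and 166.3 CPM with LPS in shielded libraries. In unshielded libraries it was at 99.0, 109.3 and 114.7 against 108.1, 102.1 and 105.0 CPM. The shielded LPS libraries stood above the other 9, and the responses differed by -0.78 ± 0.12 on the log2 scale (adjusted p = 0.00283).

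Zfp821 was at 10.2, 9.47 and 11.4 CPM without and 6.15, 5.98 and 9.25 CPM with LPS in shielded libraries, and at 12.8, 14.5 and 12.6 against 18.7, 21.8 and 23.5 CPM in unshielded ones. It fell by 0.54 ± 0.16 in the first and rose by 0.68 ± 0.16 in the second (adjusted p = 0.0115 and 0.00436), a difference of 1.22 ± 0.23 (adjusted p = 0.00582). The fall was called in 11 of 18 alternatives. It was lost with the covariate (-0.15), the GC content and length offset (-0.29), the 2 groups alone (adjusted p = 0.0605), without the 2 conflicting libraries (adjusted p = 0.0994) or grouping them by field (-0.25), and without shielded LPS replicate 2 (adjusted p = 0.055) or shielded replicate 3 without LPS (adjusted p = 0.0503). The rise was lost with library totals (0.38). Zfp672 went the other way, with a rise of 0.53 ± 0.12 and a fall of 0.39 ± 0.12 (adjusted p = 0.0022 and 0.0214; difference -0.92 ± 0.17, adjusted p = 0.00575). Its rise was 0.17 with library totals, and its fall was lost with no count filter (adjusted p = 0.107), with the GC content and length offset (-0.33), with a replicate block (adjusted p = 0.058), and without unshielded LPS replicate 2 (adjusted p = 0.091) or 3 (adjusted p = 0.082) or unshielded replicate 3 without LPS (adjusted p = 0.07). With Zfp809 these are the 3 members called in opposite directions.

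Zfp568, a KRAB protein known for repressing a placental transcript of Igf2, was at 8.19, 8.92 and 8.17 CPM without and 18.4, 19.4 and 16.1 CPM with LPS in shielded libraries, and at 8.78, 10.4 and 10.9 against 11.7, 13.3 and 10.5 CPM in unshielded ones. Its response was 1.09 ± 0.13 in shielded mice (adjusted p = 9.87e-06) and 0.24 ± 0.13 in unshielded mice (adjusted p = 0.141), a difference of -0.85 ± 0.18 (adjusted p = 0.00898). Zfp704 differed by 0.95 ± 0.22 (adjusted p = 0.0161) and Zfp809 by -0.92 ± 0.21 (adjusted p = 0.0131). When the 2 conflicting libraries were left out the calls of the 24 differences were lost. That fit keeps 1 shielded library without LPS, so it cannot decide whether they hold.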

How the data were processed

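Gene counts of 12 libraries were deposited by the authors as whole reads per gene, with no normalization; FastQC, STAR, HTSeq and mm9 are named in the submitters' processing notes, and the RNA was linearly amplified, per the labels' protocols. Strand setting, gene annotation and tool versions were not given in the sources used here. Symbols were matched to 36225 of 36491 identifiers. Biotype, GC content, length, exon overlap and the protein patterns (KRAB-like, SCAN-like, C2H2) came from GENCODE M21 transcripts, in place of the RefSeq proteins first planned; that build differs from the authors', so the only coordinates printed are those of the RefSeq promoter sequences, on GRCm38.p6.

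Members and gene lists were chosen with earlier results of these data known. Zfp91 had been listed as a retroelement silencer through a confusion with human ZNF91, and that list is described without it. One edgeR 4.0.16 model (R 4.3.3; TMM factors, filterByExpr with a minimum of 10 counts and a total of 15, robust quasi-likelihood fit, two-sided, Benjamini-Hochberg over 18875 genes, threshold 0.05) covered the 4 groups by title. The script was tested on simulated counts. SE is the log2 fold change over the square root of F. CPM in the text are TMM-scaled; log2 CPM used a prior count of 2. Named members were, per comparison and direction, up to 8 with the largest called change and no overlap of groups, the 6 of highest mean CPM and those in the role lists; some were left out for length. DESeq2 1.42.0, other scalings, filters and sample sets were alternatives. Same-numbered libraries deviated together for LPS in shielded mice (correlations 0.112, 0.194 and 0.547), the only comparison of 2 groups in which no correlation was negative. These are deviations from group means and are not independent of each other. The numbers come from the titles, and the labels name no shared animal or day. The main model held no pairing, and a replicate block was an alternative.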

Additional observations from a re-analysis of the deposited data

Results flagged for a closer look

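The response to LPS differed between unshielded and shielded mice for 24 members, by the edgeR contrast of both responses (log2 scale, unshielded minus shielded). It was lower in unshielded mice for Zfp809 (-0.92), Zfp672 (-0.92), Zfp568 (-0.85), Zfp207 (-0.78), Zfp420 (-0.76), Zfp930 (-0.73), Zfp65 (-0.68), Zfp251 (-0.64), Zfp146 (-0.59), Zfp397 (-0.55), Zfp451 (-0.54), Zfp638 (-0.54), Zfp141 (-0.52), Zfp131 (-0.50), Zfp518a (-0.44), Zfp160 (-0.42), Zfp280c (-0.42) and Zfp664 (-0.37). It was higher for Zfp740 (0.49), Zfp658 (0.53), Zfp362 (0.56), Zfp580 (0.70), Zfp704 (0.95) and Zfp821 (1.22). Zfp207, Zfp821, Zfp704, Zfp672, Zfp809 and Zfp568 kept the call in every alternative that retained all libraries with their titles, and with any 1 library left out; of the other 18, those named under the rule were refitted and each lost it in at least 1 of these. These calls were lost without the 2 libraries whose title and treatment field conflict. That fit keeps 1 shielded library without LPS, so it cannot decide whether the differences hold.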

How the results depend on the processing

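Of 184 calls of named members, 36 held under every alternative. Of 3274 alternative values 2701 kept their call, 564 lost it and 9 turned sign. These totals include the fits that left out the libraries with conflicting fields or grouped them by treatment field. Such fits leave the shielded group without LPS unreplicated, so they cannot decide whether calls against that group hold. In the LPS response check, the sums of the conflicting libraries lay in the range of the libraries without LPS. The values that turned, after LPS in shielded mice, were Zfp326 at -0.10 with library totals, Zfp326 at -0.011, Zfp335 at -0.26, Zfp609 at -0.14, Zfp445 at -0.02 and Zfp462 at 0.055 with the neuron and oligodendrocyte covariate, and Zfp385a at 0.15 and Zfp580 at 0.016 with the GC content and length offset, which also gave Zfp580 -0.091 between shield groups after LPS. The cause was not tested.

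For LPS in shielded mice (72 higher, 72 lower), library totals gave 29 and 125, the covariate 25 higher, the offset 112 and 36, leaving out the 2 conflicting libraries 36 lower, grouping them by treatment field 0 and 0, and members of at least 10 CPM 34 lower. For LPS in unshielded mice (34 and 63), totals gave 12 and 153, no count filter 40 lower, protein-coding genes of at least 3 CPM alone 100 lower, the offset 31 lower and members of at least 10 CPM 32 lower. Between shield groups without LPS (5 and 10), totals gave 9 higher, RLE factors 6 lower, protein-coding genes alone 9 and 16, leaving out the 2 libraries 0 and 1, grouping by field 0 and 0, the 2 groups alone 11 higher, the covariate 10 and 20. After LPS (32 and 93), protein-coding genes alone gave 50 higher, grouping by field 3 and 19, the offset 17 higher, no filter 57 lower, the 2 groups alone 60 lower, the covariate 54 lower and members of at least 10 CPM 20 and 58. For the difference of responses (6 and 18), totals gave 13 higher, RLE factors 3 higher, protein-coding genes alone 23 higher, thinned counts 10 higher, no filter 4 lower, leaving out the 2 libraries 0 and 0, grouping by field 0 and 0, the covariate 10 and 8, the offset 2 and 6.

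With a replicate block the counts were 69 and 64 for LPS in shielded mice and 30 and 55 in unshielded mice. They were 13 and 17 between shield groups without LPS, 22 and 52 after LPS, and 4 and 14 for the difference. Same-numbered libraries correlated at -0.115, -0.094 and 0.020 for LPS in unshielded mice. Between shield groups they correlated at 0.140, -0.016 and 0.123 without LPS, and at -0.264, 0.152 and 0.478 after LPS.

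Leaving out 1 library gave 60 to 103 higher and 58 to 61 lower for LPS in shielded mice, 20 to 34 and 46 to 61 in unshielded mice, 4 to 4 and 4 to 7 without LPS, 19 to 31 and 69 to 131 after LPS, and 2 to 11 and 7 to 65 for the difference. The 20 came without unshielded replicate 2 or 3 without LPS, the 19 without shielded LPS replicate 1, 20 after LPS without unshielded LPS replicate 1, and the 11 and 65 without shielded LPS replicate 3. With counts thinned to equal depth, LPS in shielded mice gave 71 higher and 73 lower.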
